A study of Mus musculus with 2 samples.

Results

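The genes described here encode the proteins of the cytosolic ribosome. They were taken from the GENCODE M21 annotation of the mouse genome as protein-coding genes on chromosomes 1 to 19 whose symbol begins with Rpl or Rps followed by a digit, together with Rpsa, Rplp0, Rplp1 and Rplp2. The Rps6k kinases, Rps19bp1 and symbols marked as pseudogenes were left out. The rule gave 81 of 20807 protein-coding genes on these chromosomes, 49 for the large subunit and 32 for the small subunit, and 8 of the 81 are paralogs such as Rpl3l, Rpl10l and Rps27l. The data are peak lists of CTCF ChIP-seq, deposited on the build mm10, from liver of mice of the strain B6NCrl at postnatal day 0. The labels give 1 group with 2 biological replicates of pulverized livers pooled over several dissections. They have 1 biosample label and 1 donor label in common. Any spread between them may therefore be technical only, and the sex was not collected. There is no treatment. Neither RNA nor protein was measured, so nothing here bears on expression, and the tissue label could not be set against marker genes.

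The ribosome is built from a large subunit, which forms peptide bonds, and a small subunit, which reads the messenger RNA. Each ribosomal protein is needed in about equal amounts, yet its genes lie scattered over the genome, so their promoters have to be driven in step. Many of these promoters start transcription within a run of pyrimidines, the 5' TOP sequence, which ties translation of the messenger to growth signals. CTCF recognises a long, directional DNA motif through its zinc fingers, anchors chromatin loops with cohesin, and also sits close to many transcription starts. The liver at birth still holds blood-forming cells beside its hepatocytes, and loss of 1 copy of some ribosomal protein genes is known to impair red blood cell formation.

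The sequences that carry the strongest binding are shown first. Each line gives 30 bases on the strand of the motif, with the 14-base match to the CTCF core, the conserved centre of the motif, in capitals. The core was sought within 50 bp of the summit on both strands with at most 2 mismatches. These are the cores under 9 of the 11 member peaks that lie in the strongest 10% of the list and hold such a match, from strong to weak. Coordinates are those of the 30 bases on mm10.
Rplp0 (chr5:115559282-115559311, plus strand): gctccgacCCAGCAGAGGGCAGcaggtctg
Rps3a1 (chr3:86142686-86142715, plus strand): atctcgcgACACTAGCTGGCGGctcgtttc
Rpl26 (chr11:68901457-68901486, plus strand): cctccgagCCGCTAGATGTCGCtaaactcc
Rpl36 (chr17:56613320-56613349, plus strand): acctccggCCACCAGAGGTCGCccgcagcg
Rpl5 (chr5:107900457-107900486, plus strand): tcctcctaCCGGCAGGGGGCGAtagcccgc
Rpl11 (chr4:136053472-136053501, minus strand): aggacagtCCACTAGAGGTGGCagcgccac
Rpl27 (chr11:101442118-101442147, minus strand): ctactctgCCACTAGGAGGAGGacagagtc
Rps24 (chr14:24487118-24487147, minus strand): tgaaggagCCGCTAGATGGCGAtctagaag
Rpl38 (chr11:114668450-114668479, plus strand): aatctgaaCCAGAAGAGGGCAGggctgctg
The match at Rplp0 was the only one without a mismatch. Of those shown, the matches at Rpl36 and Rpl38 had 1 mismatch, and the other 6 had 2.

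CTCF peaks stood at the 5' end of 45 of the 81 genes (55.6%, exact 95% interval 44.1 to 66.6). A peak was counted when its summit lay within 1 kb of the 5' end of the gene in the optimal list of the authors. The summit is the position of highest signal. The authors made this list from both replicates with the irreproducible discovery rate (IDR). Of the 45 peaks, 43 had a summit within 100 bp in both replicate lists. The same count over all protein-coding genes on these chromosomes was 29.2%. Ribosomal protein genes have CpG-rich 5' ends more often than other protein-coding genes, 68 of 81 against 9444 of 20726, so the count was also read within that class. A 5' end counted as CpG-rich where the bases within 500 bp of it had 50% GC or more and a CpG frequency of 0.6 or more relative to that from base composition. Among CpG-rich 5' ends a peak was found at 40 of 68 ribosomal protein genes (58.8%, exact 95% interval 46.2 to 70.6), where all such genes gave 46.0%. Among the 13 with CpG-poor 5' ends it was found at 5 (38.5%, interval 13.9 to 68.4), where all gave 15.1%. The share of all genes lay just below the members' interval in the CpG-rich class and inside it in the CpG-poor class. Genes are not replicates of a condition, so intervals cover counting error only and no test was made.

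The large and small subunit could not be told apart by how often a peak was present. It was found at 29 of 49 large subunit genes (59.2%, exact 95% interval 44.2 to 73.0) and at 16 of 32 small subunit genes (50%, interval 31.9 to 68.1). The difference was 9.18 percentage points with a 95% interval (Newcombe) from -12.3 to 29.8. It was -0.0638 percentage points, with 26 of 49 and 17 of 32 genes, both in the conservative list of the authors and in replicate 1 alone, with its list cut to as many peaks as the optimal list. With CpG-rich 5' ends only the counts were 26 of 42 and 14 of 26. The plot of shares by gene group shows the overlap of the intervals.

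**Figure D1:**
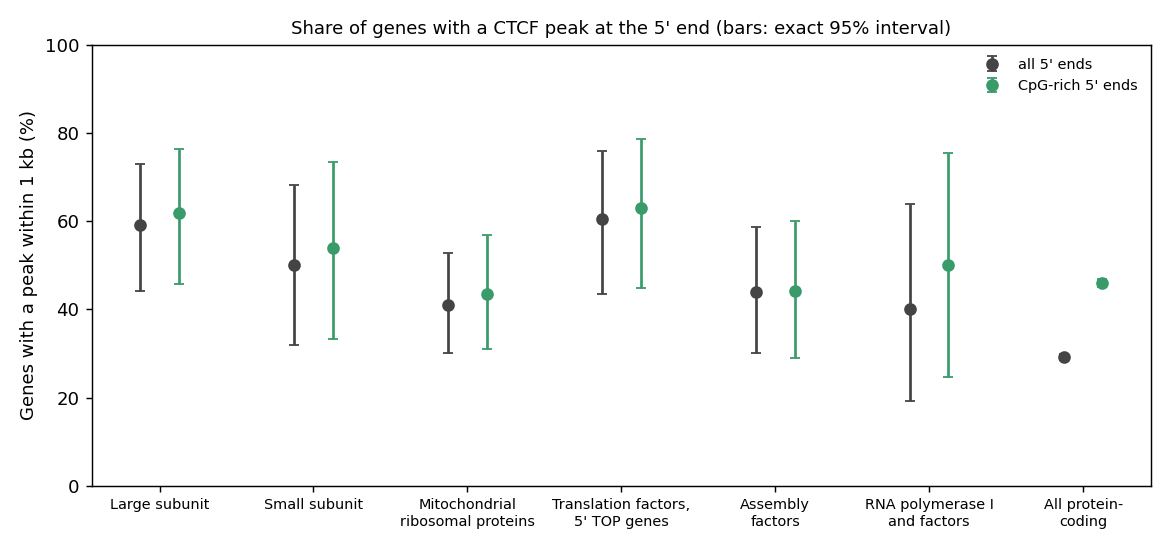
Percent of genes (vertical axis) with a CTCF peak summit within 1 kb of the 5' end, for the large and small subunit, for other groups of the translation machinery and for all protein-coding genes, in grey over all 5' ends and in green over CpG-rich ones; bars are exact 95% binomial intervals. The large subunit lies at 59.2% and the small subunit at 50% with overlapping intervals, and all protein-coding genes lie at 29.2% in grey and 46.0% in green.

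Where a peak was present, its signal spanned almost the whole range of the list. The signal is the value the authors deposited for each peak. Its scale is not stated, so it serves to rank peaks within a list. Over the 45 genes the strongest peak at the 5' end had a median of 136.1 and lay between 8.68 and 514.0. The whole list ran from 4.12 to 701.8. Over all 6074 protein-coding genes with a peak the median was 61.0. The medians were 110.4 for 29 large subunit genes and 165.2 for 16 small subunit genes, whose ranges overlap almost fully, 8.68 to 514.0 and 14.6 to 507.3. The order of the medians turned under several alternatives: in the conservative list they were 179.7 and 147.3, and in replicate 1 alone 89.8 and 75.3, so neither subunit is given as the stronger. Of the 45 peaks, 25 (55.6%) lay above the median of the list, 71.2, and 13 (28.9%) lay in its strongest 10%. For all protein-coding genes the corresponding shares were 46.0% and 13.4%. In the strongest 10% were 9 of 29 large subunit and 4 of 16 small subunit peaks.

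Among the large subunit genes, Rplp0 had the strongest peak of all members. It encodes the base of the ribosomal stalk, which recruits elongation factors. Its signal was 514.0 in the optimal list, 269.9 in replicate 1 and 245.6 in replicate 2, and its rank was 179, 138 and 243. The peak lay on chromosome 5 from 115559164 to 115559513, outside the gene and 141 bp upstream of the 5' end. Rpl26 followed with 481.0 (247.4 in replicate 1 and 235.9 in replicate 2), 115 bp upstream. Rpl36 had 480.4 (239.6 and 242.9), 67 bp upstream. The replicates placed all 3 peaks at ranks between 138 and 423 of 300000.

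Rpl5 and Rpl11, whose products bind the smallest ribosomal RNA and can hold back the p53 regulator Mdm2, both carried a strong peak. At Rpl5 the signal was 460.6 (224.0 in replicate 1 and 239.9 in replicate 2), with the summit 14 bp upstream. At Rpl11 it was 390.4 (192.9 and 198.1), with the summit 58 bp upstream. The replicates thus ranked the pair in the same order. Rpl10a, which encodes the protein of the mobile L1 stalk, had 367.2 (189.2 and 178.4), 2 bp upstream. Rpl27 had 365.3 (181.7 and 183.0), 153 bp upstream. In each of the large subunit genes named so far the summit lay upstream.

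In the small subunit the strongest peak was at Rps3a1, on chromosome 3 from 86142585 to 86142877. Its signal was 507.3 in the optimal list, 258.9 in replicate 1 and 253.8 in replicate 2, with the summit 31 bp upstream. Rps24 is among the genes mutated in Diamond-Blackfan anaemia, a failure of red cell formation. It had 349.1 (171.8 in replicate 1 and 179.5 in replicate 2), 9 bp downstream and in a noncoding exon. It was the only member peak of the strongest 10% that did not lie upstream. In that class 12 of 13 member peaks (92.3%) were upstream, where all protein-coding genes gave 74.3%.

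Further small subunit peaks above the list median were at Rps15 and Rps29, the latter again a gene of Diamond-Blackfan anaemia. Rps15 had 292.9 (145.7 in replicate 1 and 145.2 in replicate 2), 86 bp upstream. Rps29 had 263.1 (138.7 and 123.1), 578 bp upstream. Rps20 had 206.2 (107.0 and 98.1), 91 bp upstream. Rps19, the gene most often mutated in Diamond-Blackfan anaemia, had 183.0 (102.6 and 84.1), 379 bp upstream. Rps26, another gene of that disease, had 147.3 (75.3 and 74.5), 162 bp upstream. It was the weakest of the 9 small subunit peaks above the list median, and below it came a gap to Rps18 at 50.4. Genes of Diamond-Blackfan anaemia were not counted as a set, and not all of them are marked here. How often they carry a strong peak was therefore not tested.

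The replicates ranked these peaks alike at the strong end and less so at the weak end. Of the 45 peaks, 43 had a summit within 100 bp in both replicate lists, and across them Spearman's rho of the signal was 0.976. This describes peaks that share 2 libraries and were picked by a list made from the same replicates, so it is no independent measure of agreement. The median signal was 75.3 (4.21 to 269.9) in replicate 1 and 74.5 (5.47 to 253.8) in replicate 2. The exceptions were Rpl18 (17.3), which was matched in replicate 1 only, at 13.3, and Rpl8 (8.68), which was matched in replicate 1 only, at 5.32. Among the matched peaks Rpl14 differed most in rank, with 4.21 at rank 110944 in replicate 1 and 7.31 at rank 62033 in replicate 2. Rpl29 came next, with 17.8 at rank 40493 in replicate 1 and 5.96 at rank 71586 in replicate 2. Rpl23a was higher in replicate 2 (35.2) than in replicate 1 (15.8).

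**Figure D2:**
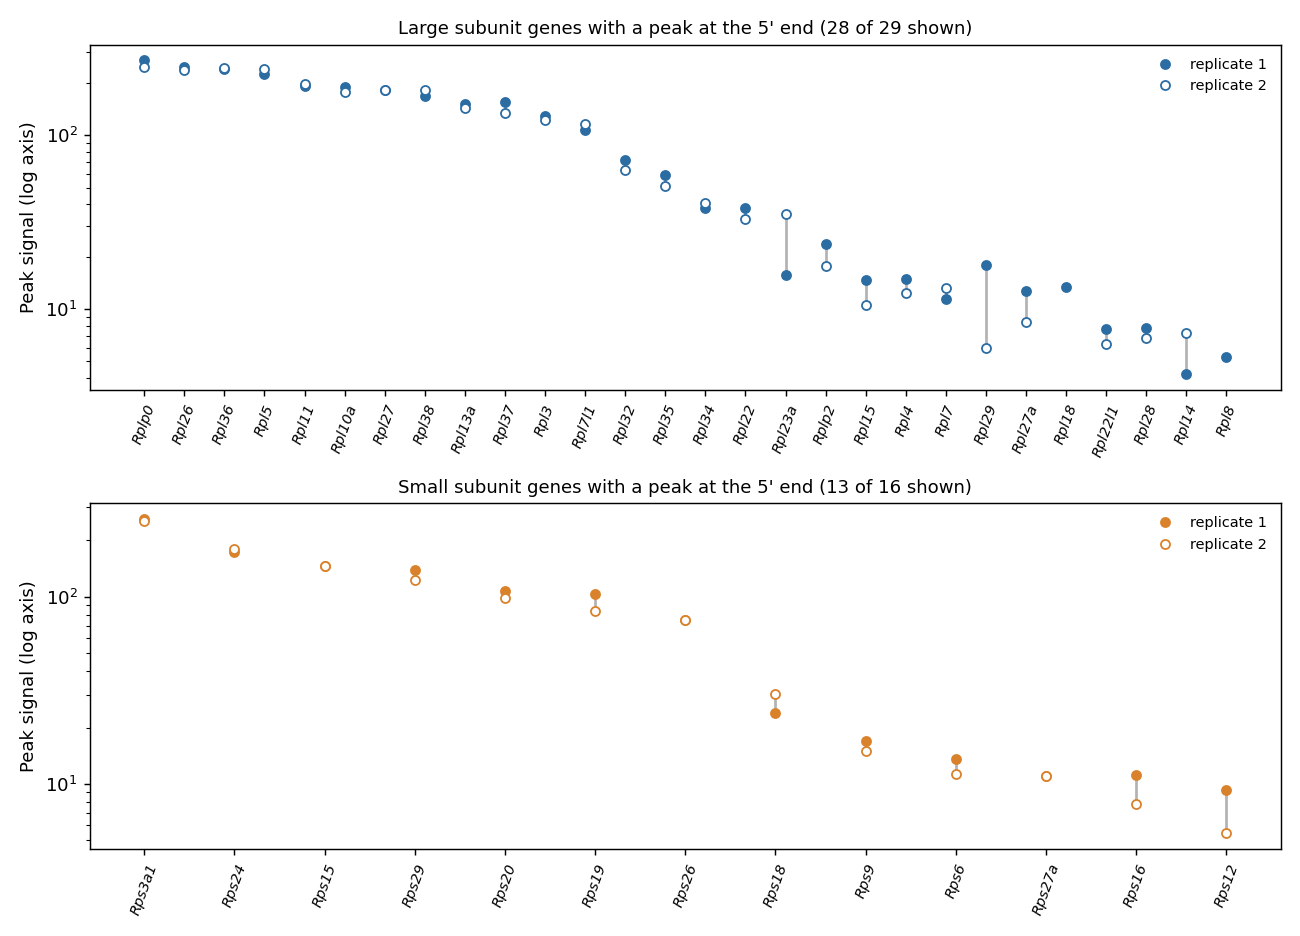
Peak signal on a log axis in the list of replicate 1 (filled) and of replicate 2 (open) for the strongest 5' end peak of 28 of the 29 large and 13 of the 16 small subunit genes with one, ordered by the signal in the optimal list, with the large subunit above and the small subunit below; grey lines join the replicates. The points lie close together from Rplp0 and Rps3a1 down to a signal of about 50 in the optimal list and part for genes such as Rpl23a and Rpl29.

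The weakest member peaks ranked in the last part of the optimal list, between 48636 and 56842. Rpl8 had 8.68, 56 bp upstream, and a further summit 146 bp downstream at 7.96 that had no match in either replicate. Rpl14 had 12.7 (4.21 in replicate 1 and 7.31 in replicate 2), and Rpl28 had 14.2 (7.80 and 6.85). In the small subunit the weakest were Rps12 at 14.6 (9.28 and 5.47), Rps16 at 19.1 (11.2 and 7.78) and Rps27a, a fusion with ubiquitin, at 22.1 (11.0 and 11.0). When each replicate was cut to its strongest peaks, as many as the optimal list holds, 37 of the 81 genes had a peak in both replicates and in both IDR lists, 27 had none in any of these 4 lists and 17 had one in some. The 17 all had a signal below 25 in the optimal list or no peak there. They include Rpl21, Rps27l and Rpsa, which had a peak in the conservative list and not in the optimal list.

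Strong peaks lay just upstream of the gene and weak ones often inside it. The summit was upstream of the 5' end at 29 of 45 genes (64.4%, exact 95% interval 48.8 to 78.1), and over all protein-coding genes with a peak this share was 54.6%. The 29 upstream peaks had a median signal of 289.1 and the 16 downstream peaks one of 29.6. Of the 25 peaks above the list median, 22 (88.0%) were upstream, and of the 20 at or below it, 7 (35.0%). For all protein-coding genes these shares were 63.5% and 47.0%. The pattern held in each subunit, with 14 of 16 and 8 of 9 strong peaks upstream. The 3 strong downstream peaks were at Rps24, Rpl3 and Rpl34. The plot of position against signal shows how few strong peaks lie downstream.

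**Figure D3:**
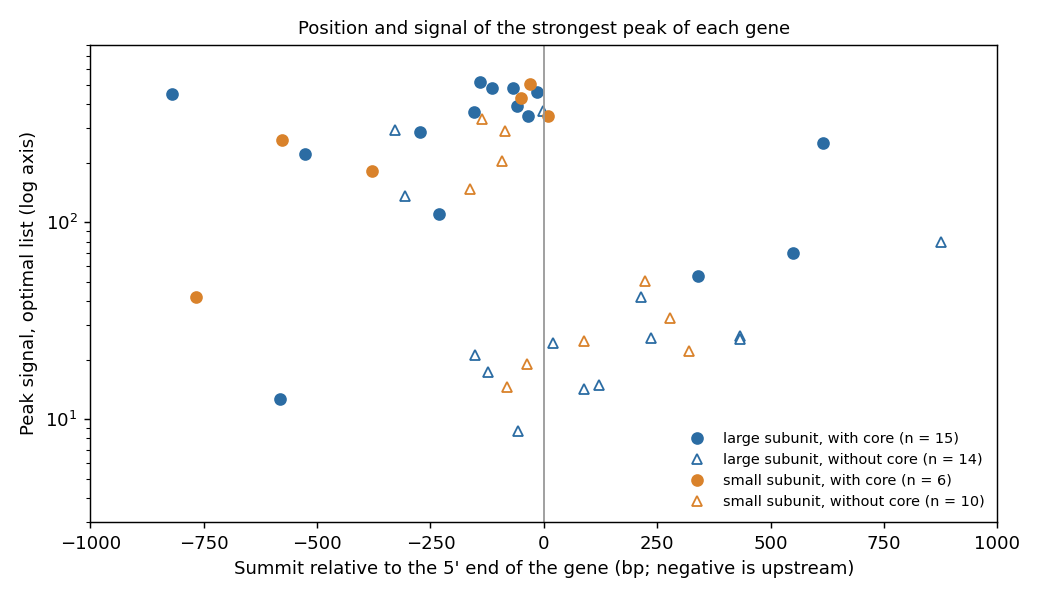
Signal of the strongest peak of each gene in the optimal list (log axis) against the distance of its summit from the 5' end in bp, negative upstream; filled circles have the CTCF core and open triangles do not, in blue for the large and orange for the small subunit. Most peaks above a signal of 100 lie within 200 bp upstream, and downstream of the 5' end only Rps24 and Rpl3 exceed 100.

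Most summits were close to the start. The distance to the 5' end was 153 bp in the median, with 24 of 45 (53.3%) within 200 bp. Over all protein-coding genes with a peak the median was 237 bp, with 45.3% within 200 bp. Of the 16 downstream summits, 7 lay in a 5' UTR, 6 in an intron, 2 in a noncoding exon and 1, at Rps6, in a coding exon. Rps6 encodes the target of the S6 kinases and had a signal of 24.9 there. The median signal was 26.4 for summits in a 5' UTR and 51.8 for those in an intron. The 5' end is the outermost annotated start of a gene and need not be its main start. A run of a C followed by 4 pyrimidines, as in a 5' TOP sequence, began within 5 bp of it in 23 of the 81 genes. The run was not counted over all protein-coding genes, so this number cannot be read as a trait of the members.

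The CTCF core was found at 21 of the 45 peaks (46.7%, exact 95% interval 31.7 to 62.1), against 43.7% for all protein-coding genes with a peak. In windows displaced by 1 kb it was in 0 of 45, which allows a share of up to 6.67%, where all genes gave 3.56%. The core was present at 15 of 29 large subunit peaks and 6 of 16 small subunit peaks, and these intervals overlap (32.5 to 70.6 and 15.2 to 64.6). Peaks with the core had a median signal of 348.5 and those without it 26.2. Over all protein-coding genes these medians were 139.8 and 37.4. The core lay on the strand of the gene at 13 of the 21 (61.9%, exact 95% interval 38.4 to 81.9), and over all protein-coding genes with a unique best core the share was 57.6%.

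Some strong peaks did not hold the core under this definition. Above the list median these were 8 of 25, among them Rpl10a, Rpl13a, Rps15, Rps20, Rps26, Rpl32 and Rpl34. Of the 8, 7 have a best match with 3 mismatches and Rps26 one with 4. The best match at Rpl32, which has a single best match and a signal of 136.1, shows how near such a site comes.
Rpl32 (chr6:115809054-115809083, minus strand): cctcccagCCTCAAGGAGGCACcctcggga
No match at this limit says only that these letters are absent from the window. 

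A group of weaker peaks upstream of ribosomal protein genes shared almost the same core. It is not limited to weak peaks. The core of the strongest Rpl38 peak, shown above, differs from that of the weaker Rpl11 and Rpl38 peaks in its last base only. The weaker peaks are shown because the same bases recur at many peaks of the genome.
Rpl11 (chr4:136054108-136054137, minus strand): cctgcataCCAGAAGAGGGCATcagatccc
Rpl38 (chr11:114668075-114668104, minus strand): catggaggCCAGAAGAGGGCATcggatcca
Rpl14 (chr9:120570821-120570850, plus strand): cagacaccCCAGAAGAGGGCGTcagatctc
The 14 bases at Rpl11 and Rpl38 were the best core of 2548 optimal peaks on chromosomes 1 to 19, with a median signal of 39.9, and those at Rpl14 were the best core of 816 peaks, with a median of 38.7. Soft-masked bases mark repeats in the RefSeq genome file and are not the lower case above. They cover 64.1% to 70.8% of these peaks and 0% to 29.2% of 48 other peaks at member 5' ends. Those 48 were set apart as not over 50% masked, so a difference was fixed in advance. The signals of the weaker peaks shown were 91.4 at Rpl11, 87.8 at Rpl38 and 12.7 at Rpl14. The summits of these peaks lay 464 to 690 bp upstream. At Rpl11 and Rpl38 they were additional to a stronger peak nearer the start. Rodent B2 repeats are known to carry CTCF sites. The repeat class of these sites was not tested. Among the strong peaks shown first, the cores of Rpl38 and Rplp0 recurred most often. The bases at the strongest Rpl38 peak were the best core of 368 peaks, with a median signal of 67.2, and those at Rplp0 of 271 peaks, with a median of 214.8. The cores of Rpl36, Rps24, Rpl5, Rpl11 and Rpl26 were those of 2 to 10 peaks, and the cores of Rps3a1, Rpl27 and Rpl37 each occurred at 1 peak of the list.

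More than 1 peak within 1 kb was found at 6 large subunit genes, Rpl11, Rpl22, Rpl34, Rpl36, Rpl38 and Rpl8, and at 0 of 16 small subunit genes, which allows a share of up to 18.8%. Over all protein-coding genes with a peak, 14.9% had more than 1, and over these 45 it was 13.3%. Rpl38, whose loss alters the vertebral pattern of mice, had 3. They had signals of 348.5 (34 bp upstream), 90.9 (611 bp downstream, in an intron) and 87.8 (464 bp upstream). Rpl36 had a further peak of 22.4, 808 bp upstream. Rpl22 had 69.7 and 57.6, 550 and 98 bp downstream, and Rpl34 had 79.9 and 22.9, 876 bp downstream and 63 bp upstream.

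Another protein-coding gene began within 1 kb on the opposite strand at 16 of the 81 genes. A peak was present at 7 of these 16 (43.8%, exact 95% interval 19.8 to 70.1) and at 38 of the other 65 (58.5%, interval 45.6 to 70.6). All protein-coding genes went the other way, with 47.0% where another 5' end was near on either strand and 26.6% where none was. These 2 classes of all genes also differ in CpG content, with CpG-rich 5' ends at 77.7% and 41.0%. For the members it was 87.5% and 83.1%. The part of CpG content in the contrast was not tested. The intervals of the 2 member classes overlap. In each of the 7 the summit also lay within 1 kb of the start of the partner gene. At 6 of the 7 it lay downstream of the start of the ribosomal protein gene. The share upstream was thus 14.3% (exact 95% interval 0.361 to 57.9). Over all protein-coding genes with a peak and another 5' end near, it was 50.7%, inside that interval. The partners were Polr3a for Rps24, Syngr1 for Rpl3, Arpc5l for Rpl35, Vps52 for Rps18, Nkiras1 for Rpl15, Zwilch for Rpl4 and Clhc1 for Rps27a. The summit was 9 bp from the start of Rps24 and 76 bp from that of Polr3a, which encodes the catalytic subunit of RNA polymerase III. At Rpl3, which takes part in the peptidyl transferase centre, a peak of 252.4 lay 616 bp from its own start and 82 bp from that of Syngr1.

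Most genes without a peak at the 5' end had one within 10 kb, 28 of 36 (77.8%, exact 95% interval 60.8 to 89.9), where all protein-coding genes without one gave 45.8%. With CpG-rich 5' ends only it was 23 of 28 (82.1%, interval 63.1 to 93.9), where all gave 56.7%. For the 36 genes the nearest summit was 5.35 kb away in the median, and for all protein-coding genes without a peak it was 11.7 kb, or 8.07 kb with CpG-rich 5' ends. The median was 4.61 kb for 20 large subunit genes and 7.05 kb for 16 small subunit genes. Closest among the large subunit were Rpl7a at 1.23 kb (signal 30.7), Rpl24 at 1.56 kb (137.9) and Rpl41 at 1.57 kb (239.2). Among the small subunit they were Rps2 at 1.04 kb (13.4), Rps28 at 1.94 kb (26.3) and Rps13 at 2.13 kb (172.2). The farthest were paralogs in the large subunit, Rpl10l, a retrogene known for its role in the testis, at 352.4 kb and Rpl39l at 81.3 kb, followed by Rpl21 at 8.92 kb. In the small subunit they were Rps27rt at 25.6 kb, Rps15a at 13.7 kb and Rps14, the gene of the anaemia of the deletion on human chromosome arm 5q, at 12.3 kb. Rps14, Rps2 and Rpl24 had a peak within 1 kb of another annotated start, so their distances hold for the outermost start only. Of the 8 paralogs, 2 had a peak, Rpl7l1 (223.2) and Rpl22l1 (15.0).

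**Figure D4:**
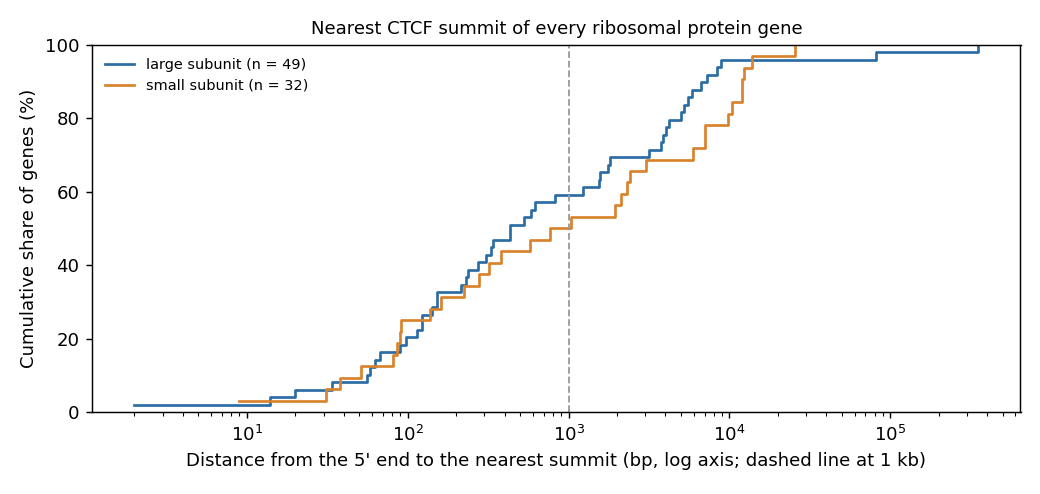
Cumulative percent of genes (vertical axis) by the distance from the 5' end to the nearest optimal summit in bp (log axis), for 49 large and 32 small subunit genes; the dashed line marks 1 kb. At the line the curves stand at 59.2% and 50%, and 2 large subunit genes, Rpl39l and Rpl10l, lie beyond 30 kb.

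Weak calls at the 36 genes were counted in the longer lists. Each replicate list and the pooled list hold 300000 peaks and so reach far below the optimal list. In them, 23 of the 36 (63.9%) had a summit within 1 kb of the 5' end in both replicates, where all protein-coding genes without an optimal peak gave 32.4%. With CpG-rich 5' ends only it was 20 of 28 (71.4%, exact 95% interval 51.3 to 86.8), and all such genes gave 61.0%, inside that interval. In the pooled list 28 of the 36 (77.8%) had one, where all gave 48.8%, and with CpG-rich 5' ends 25 of 28 (89.3%, interval 71.8 to 97.7), where all gave 79.4%. Within the CpG-rich class these calls were thus near the background. Their pooled signal at the members had a median of 8.53 and was highest, 16.7, at Rpl21. The peaks of Rpl8 in the optimal list had 8.68 and 7.96, so the signals overlap. Peaks just inside the limit of 1 kb were at Rpl36 (808 bp, signal 22.4) and Rpl34 (876 bp, 79.9). Just outside it were peaks at Rps2 (1039 bp, 13.4), Rpl7 (1109 bp, 152.0) and Rps27a (1170 bp, 16.5). Rpl7 and Rps27a had another peak within the limit.

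Other groups of the translation machinery were counted in the same way, beside the 29.2% of all protein-coding genes and the 46.0% of those with CpG-rich 5' ends. Of 78 mitochondrial ribosomal protein genes, which serve the separate ribosome of mitochondria, 32 (41.0%, exact 95% interval 30 to 52.7) had a peak, with a median signal of 57.6. They were led by Mrps33 (500.1) and Mrpl34 (489.9). Of 38 translation factors and other 5' TOP genes, 23 (60.5%, interval 43.4 to 76.0) had one, with a median of 37.1, led by the initiation factor genes Eif3g (414.0) and Eif3f (348.2). The core stood at 4 of these 23 peaks (17.4%, interval 4.95 to 38.8), where all protein-coding genes with a peak gave 43.7%. In the other groups the share with the core was 46.9% for mitochondrial ribosomal proteins, 54.5% for assembly factors and 37.5% for RNA polymerase I. Of 50 ribosome assembly factors, 22 (44.0%, interval 30 to 58.7) had a peak, with a median of 69.6, led by Rrp1 (568.8) and Nob1 (520.9). Of 20 genes of RNA polymerase I and its factors, which make ribosomal RNA, 8 (40.0%, interval 19.1 to 63.9) had one, with a median of 139.5, led by Taf1c (385.9) and Polr2h (341.0). With CpG-rich 5' ends only, the shares were 43.5% for the mitochondrial ribosomal proteins, 62.9% for the translation factors, 44.2% for the assembly factors and 50% for RNA polymerase I. The 46.0% of all such genes lies within the interval of each of these shares. The intervals of all 4 groups overlap with that of the cytosolic ribosomal proteins.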

How the data were processed

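The deposited signal of each peak was used as the authors gave it in 5 narrowPeak lists on mm10. Per the deposited text files these are 1 list per replicate, 1 from both replicates together, and a conservative and an optimal list made from these with the irreproducible discovery rate (IDR). The control experiment was not analysed here. No source used here names the aligner, the caller or its thresholds. No read counts were used, so the depth is unknown. Summits are the deposited start plus the deposited offset. Coordinates were set against GRCm38 with GENCODE M21, and no peak ended past a chromosome end. A gene took its strongest peak within 1 kb of its 5' end. Summits within 100 bp were matched between lists. The core search and the peak assignment were tested on simulated data. Shares have exact (Clopper-Pearson) intervals at 95%. No test was made, since there is 1 group. The members, the gene lists and the measures were chosen with earlier results of these data known. Named are, in each subunit, the 8 strongest and 3 weakest peaks and the 3 nearest and 3 farthest of the genes without one, further peaks near the limit or with another start, and the 2 strongest of each other group; further names were chosen after their values were seen. Some genes that this rule names are not reported here, but counts and medians include them. Python 3.11.15, scipy 1.17.1 and pysam 0.24.0 were used.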

Additional observations from a re-analysis of the deposited data

How the results depend on the processing

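With only the peaks in the stronger part of the list, above its median, 30.9% of all members had a peak. The share was 32.7% for the large and 28.1% for the small subunit, against 13.4% of all protein-coding genes. In that part the share upstream was 88.0% and the share with the core 68.0%, where all protein-coding genes gave 63.5% and 63.6%. The median signal of the large subunit there was 356.9. Within 5 kb the shares were 75.3%, 79.6% and 68.8%, against 48.9%. With at most 1 mismatch the core was found at 15.6% of the 45 peaks, 1 with 0 mismatches and 6 with 1. Over the 6074 protein-coding genes with a peak, 177 had 0 mismatches and 845 had 1. With at most 3 mismatches it was found at 68.9% of member peaks, and no share of all genes was computed at that limit. Some displaced windows, such as those of Rpl18 and Rpl23a, also held a match with 3 mismatches. The share of all protein-coding genes was 27.6% in the conservative list, 22.5% within 500 bp, 37.4% at any annotated start and 26.6% without genes near another 5' end, where the members had 53.1%, 48.1%, 59.3% and 58.5%. The median signal of the large subunit was below that of the small one in the main count and above it in the conservative list (179.7 and 147.3), without replicate 2 (89.8 and 75.3), in the strongest peaks of the pooled list (223.2 and 183.0), above the list median (356.9 and 292.9) and within 5 kb (185.2 and 159.7). The difference between the subunits was -0.0638 percentage points in the conservative list and without replicate 2, where 26 of 49 and 17 of 32 genes had a peak, and 8.23 without replicate 1. The members' share was 53.1% without replicate 2 and 51.9% without replicate 1. The other alternatives stayed within the 95% interval of the main value. Signals of single replicates stand on the scale of their own list. No paired analysis was possible because there is 1 group. The number of genes limits the precision: with 49 and 32 the interval of the difference between subunits ran from -12.3 to 29.8 percentage points.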

Other observations

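Several ribosomal protein genes carry small nucleolar RNA genes, which guide the modification of ribosomal RNA, inside their introns. By the annotation 28 of the 81 genes held at least 1 on their own strand, and 15 of these 28 had a CTCF peak at the 5' end (53.6%, exact 95% interval 33.9 to 72.5). Of the 53 without one, 30 had a peak (56.6%, interval 42.3 to 70.2). Rpl4 held 5, the most among the genes with a peak, and its peak had a signal of 26.0. Among the 23 genes with a pyrimidine run at the annotated start, 12 had a peak (52.2%, interval 30.6 to 73.2), and among the other 58 it was 33 (56.9%, interval 43.2 to 69.8).

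Few members lie next to each other. Only 4 neighbouring pairs had 5' ends at most 100 kb apart, of which 3 are described. Rps2 and Rpl3l, 9.70 kb apart on chromosome 17, had none within 1 kb, with 3 summits between their 5' ends. Rps29 and Rpl36al were 24.9 kb apart with 1 summit between them, that of the Rps29 peak 578 bp upstream of its 5' end. Rpl41 and Rps26 were 77.4 kb apart with 6 summits between them.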
